A study of Mus musculus with 6 samples.

Results

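The MHC class I antigen presentation genes H2-K1, H2-D1, B2m, Tap1, Tap2, Tapbp, Psmb8, Psmb9, Psmb10 and Nlrc5 were followed by symbol through single-nucleus RNA-seq of the degenerating rd10 mouse retina, 10 genes of the 32285 in the deposited count tables. They were taken as a named pathway by symbol, by a rule that used no measured value, although earlier results of these data were known when the pathway was chosen. Mice of strain B6.CXB1-Pde6b-rd10/J, which carry a Pde6b mutation that kills rods and then cones, received recombinant IL-27 (20 ng) or saline into the vitreous at post-natal day 18, and retinas were taken at post-natal day 20. The IL-27 treated group held 3 libraries (replicates 4, 5 and 10) and the saline control group 3 libraries (replicates 1, 2 and 6), all from rd10 animals, and no wild-type or uninjected library was analysed here. Injection itself was therefore shared by both groups, and the comparison asked whether the cytokine changed these genes in each retinal cell type.

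MHC class I molecules display peptides from inside a cell to CD8 T cells. Peptides are cut by the proteasome, whose inducible catalytic subunits Psmb8, Psmb9 and Psmb10 form the immunoproteasome, then carried into the endoplasmic reticulum by the Tap1-Tap2 transporter and loaded, with help from tapasin (Tapbp), onto a heavy chain (H2-K1 or H2-D1) paired with the light chain beta-2 microglobulin (B2m). Nlrc5 is the transactivator of class I promoters, and interferons raise the whole set. The neurons of the healthy retina are known for low class I expression.

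In the GENCODE M21 annotation of GRCm38, 7 of the 10 genes lie on chromosome 17, in the mouse major histocompatibility complex. Psmb9, Tap1, Psmb8 and Tap2 sit side by side within 34335 bases, and the Psmb9 and Tap1 gene models, on opposite strands, overlap by 212 bases. H2-K1 (ENSMUSG00000061232) lies at chr17:33996017-34000347 on the minus strand and H2-D1 (ENSMUSG00000073411) at chr17:35262730-35267499 on the plus strand. B2m (ENSMUSG00000060802) lies on chromosome 2, and Psmb10 and Nlrc5 on chromosome 8. The sources used here do not say whether reads were counted by strand. H2-K1 and H2-D1 share sequence with each other and with further class I genes, so reads of these paralogs may be split uncertainly, and without strand, reads of Tap1 and Psmb9 in their overlap, or of B2m and its opposite-strand neighbour Patl2, could not be told apart.

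RefSeq promoter sequences (GRCm38.p6, 250 bases before to 50 after each annotated start) were matched for 8 of the 10 genes, all but Tap2 and Nlrc5. The SXY module, the promoter element through which Nlrc5 acts, contains an X2 box bound by Creb and Atf factors and a Y box bound by NF-Y. A search on both strands for TGACG followed after 20 bases by ATTGG found this pair in H2-K1, H2-D1 and B2m, and in 31 of 32851 promoters in the table (0.0944%). The 200 bases before the start are shown for these 3 genes because they carry the pair, which is written in capitals. H2-K1 is chr17:34000348-34000547 (minus strand), H2-D1 is chr17:35262894-35263093 (plus strand, inside the longer GENCODE gene model) and B2m is chr2:122147487-122147686 (plus strand).
H2-K1: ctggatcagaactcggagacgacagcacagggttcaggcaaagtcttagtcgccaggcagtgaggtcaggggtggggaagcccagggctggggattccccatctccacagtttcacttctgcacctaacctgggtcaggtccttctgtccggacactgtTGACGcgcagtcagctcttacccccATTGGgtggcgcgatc
H2-D1: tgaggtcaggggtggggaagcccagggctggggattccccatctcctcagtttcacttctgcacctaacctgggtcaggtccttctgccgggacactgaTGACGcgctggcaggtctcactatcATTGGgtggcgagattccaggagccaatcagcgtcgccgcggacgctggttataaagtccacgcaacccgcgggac
B2m: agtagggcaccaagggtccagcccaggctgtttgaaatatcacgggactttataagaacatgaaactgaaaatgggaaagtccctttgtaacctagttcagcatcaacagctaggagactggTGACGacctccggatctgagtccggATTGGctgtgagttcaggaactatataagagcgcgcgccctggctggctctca
Over the 30 bases from the first to the last capital, H2-K1 and H2-D1 were identical at 23 positions, H2-K1 and B2m at 13, and H2-D1 and B2m at 12. The pair is not rare in its parts, since TGACG alone was found in 20.8% of all promoters and CCAAT, the Y box on either strand, in 37.4%. A kappa B motif (GGGATTCC, 1.06% of promoters) was found in H2-K1 and H2-D1 and an interferon element (GAAA, any 2 bases, GAAA; 3.44%) in B2m. Such matches describe letters in these windows, not binding. Only the exact letters were searched, so variants of an element were missed, and a promoter without a match may still hold the element.

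The 6 libraries held 8968 to 9965 barcodes and 36678332 to 48260748 UMIs (unique molecular identifiers, each a counted RNA molecule), and library pairs shared 18 to 30 barcodes. After filters on depth and doublets, 46963 nuclei of 11 marker-defined cell types were summed per library, and every type showed its own markers with none of them at 0. Levels below are counts per 1000000 UMIs of a cell type in a library (CPM). They are 3′ counts of nuclear RNA, so a level is compared between cell types or libraries for the same gene and not between genes. Xist was counted in 1 library of each group (saline replicate 2 and IL-27 replicate 5) and Y-linked genes in the other 4. Whether each library came from a separate animal is not stated in the labels, so p-values measure the spread between these libraries.

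Class I presentation RNA was highest in microglia, the resident macrophages, followed by endothelial nuclei and Muller glia, and lowest in horizontal cells (HC). The 10 genes summed to 2652, 2144 and 2011 CPM in microglia of the saline controls and 1734, 2879 and 2502 CPM in those of IL-27 replicates 4, 5 and 10. Endothelial nuclei reached 1414 ± 320.4 CPM (SD, n = 6), Muller glia 839 ± 189, astrocytes 643 ± 154, pericytes 535 ± 166, rods 412 ± 109.9, cones 301 ± 82.6, retinal ganglion cells (RGC) 296 ± 65.8, amacrine cells (AC) 233 ± 50.3, bipolar cells (BC) 225 ± 64.5 and HC 149 ± 43.3. The order held within single libraries for most neighbours.

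In 7 of the 10 neighbouring pairs of cell types the sum was higher in the higher-ranked type in every library. Microglia exceeded endothelial nuclei by 0.72 ± 0.23 on the log2 scale (SD of the 6 within-library differences) and endothelial nuclei exceeded Muller glia by 0.75 ± 0.26. Muller glia exceeded astrocytes by 0.38 ± 0.17. Pericytes and rods, cones and RGC, and AC and BC were not ordered in every library, the higher-ranked type leading in 5, 4 and 4 of the 6 libraries. Pericytes gave 108 nuclei and 157 UMIs of these genes in all.

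**Figure D1:**
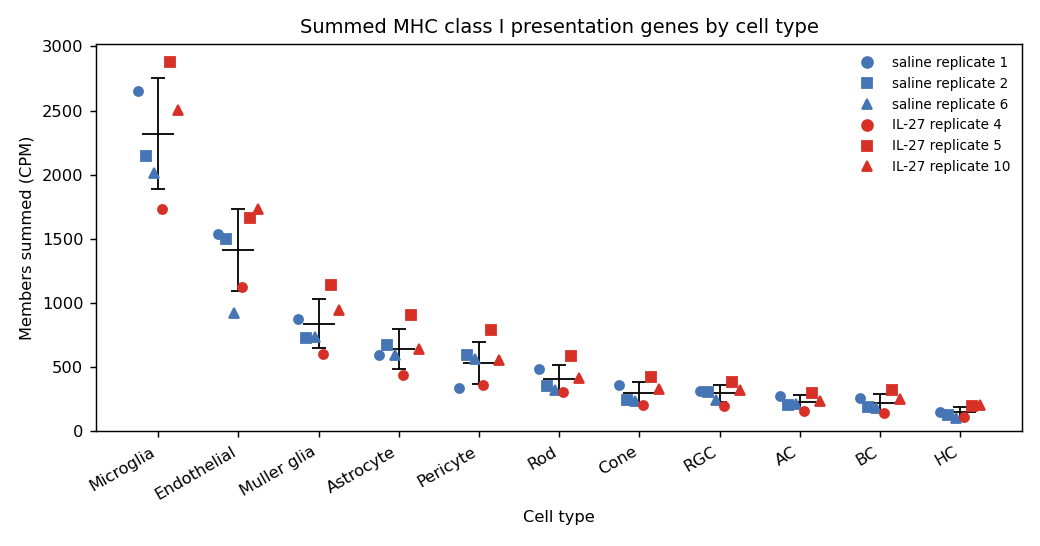
Summed level of the 10 class I presentation genes (CPM, vertical axis from 0) in each cell type, 1 point per library (blue, saline; red, IL-27), with the mean and SD over 6 libraries in black. Microglia sit between 1734 and 2879 CPM and HC between 104 and 204, and IL-27 replicate 4 is the lowest point in 8 of the 11 types.

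H2-K1, a classical heavy chain, gave the clearest order. It stood at 808 ± 183 CPM in microglia, 471 ± 131 in endothelial nuclei, 321 ± 72.9 in Muller glia and 222 ± 48.9 in astrocytes, against 49.5 ± 11.7 in HC. In 7 of its 10 neighbouring pairs the higher-ranked type led in 6 of 6 libraries, each with p = 0.0313 in a two-sided exact permutation test (sign flips within library, the smallest p that 6 libraries allow) and 0.0446 after adjustment over the 10 pairs. RGC, rods, pericytes and cones held the middle ranks, and the 3 pairs among them were not separated by that test (unadjusted exact p from 0.406 to 0.906). None of the 7 calls passed the adjustment with all retained nuclei, with doublets kept or under 1% mitochondrial counts. With a library left out none could pass, since 5 libraries allow no p below 0.0625. The adjusted value depends on how many pairs of a gene reach the smallest p, and the B2m pairs at that p had 0.0521. No pair of the other 9 genes passed the adjustment, although 27 more of their 90 pairs had an unadjusted p of 0.0313. Among these, Psmb8 in RGC against pericytes ran against its rank, with RGC higher in 0 of 6 libraries (log2 difference -1.53 ± 0.49). Pericytes held 0, 0 and 0 Psmb8 UMIs in saline and 0, 1 and 1 in IL-27 treated libraries. The Psmb8 pairs with pericytes therefore depend on the prior count of 0.5 added before the log2.

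The 10 genes did not keep a common ratio from one cell type to the next. Measured as a percentage of its own microglial level, H2-D1 stood at 61.3% in endothelial nuclei and 25.2% in Muller glia, and the immunoproteasome subunit Psmb9 at 41.4% and 19.8%. Endothelial Psmb9 rested on 0 to 6 UMIs a library (32.4 ± 22.1 CPM), and differences between genes in these percentages were not tested. Tap2, a subunit of the peptide transporter, had a higher mean in 3 other types than in microglia, at 119% of the microglial level in endothelial nuclei, 122% in pericytes and 112% in Muller glia. Its levels there (62.9 ± 21.9, 62.2 ± 27.1 and 59.9 ± 11.6 CPM, against 52.4 ± 17.8 in microglia) differed by less than their SDs, and its exact permutation p for Muller glia against microglia was 0.188.

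The transactivator Nlrc5 had higher means in glia than in neurons. It stood at 209 ± 37.6 CPM in microglia, 101 ± 30.4 in Muller glia, 60.6 ± 27.0 in endothelial nuclei and 34.7 ± 9.58 in astrocytes, and at 4.003 ± 3.63 in cones, 6.57 ± 4.15 in RGC and 6.94 ± 2.95 in rods. BC (18.0 ± 9.66) and HC (17.6 ± 12.0) were the highest of the neurons, at 8.37% and 7.69% of the microglial level. Muller glia exceeded endothelial nuclei in 6 of 6 libraries, by 0.70 on the log2 scale (exact permutation p = 0.0313, adjusted 0.104).

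Rods had the highest means among neurons for B2m, Tapbp, Psmb8 and Psmb10. They also did for Psmb9 (5.55 ± 1.72 CPM against 3.35 ± 1.87 in BC) and Tap1 (9.16 ± 2.33 against 8.97 ± 3.23 in RGC), the last by less than the SDs. B2m stood at 122 ± 29.4 CPM in rods, 61.6 ± 13.7 in cones and 37.2 ± 9.74 in BC, and the rods were at 29.8% of the microglial level. Psmb10 reached 41.1%, Tapbp 30.8% and Psmb8 29.7% in rods, where H2-K1 reached 12.95% and Nlrc5 3.33%. Rods held 1.10 B2m UMIs per H2-K1 UMI, while microglia held 0.476, Muller glia 0.289 and RGC 0.228. The ratio was 1.03 in pericytes, from few UMIs, 0.645 in cones and 0.525 in endothelial nuclei. Of these genes only Psmb8 had rods and cones as neighbours in its order, with rods higher in 6 of 6 libraries (exact permutation p = 0.0313, adjusted 0.0625), and the other rod-to-cone differences were not tested.

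RNA set free from broken cells can enter any droplet, and its size was measured with the microglial markers. The 11 marker genes of microglia summed to 1.90% to 4.18% of their microglial level in the other 10 cell types, and to 3.45% in rods and 3.25% in Muller glia. Member percentages at or below the marker percentage of their own cell type were those of Psmb9 in AC (2.37% against 3.14%) and of Nlrc5 in rods (3.33% against 3.45%) and cones (1.93% against 2.05%), and these levels are at background and cannot be read as expression. In rods the 10 genes ran from 3.33% to 41.1% of their microglial levels, against 3.45% for the markers, and the part of free RNA from other cell types was not tested.

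**Figure D2:**
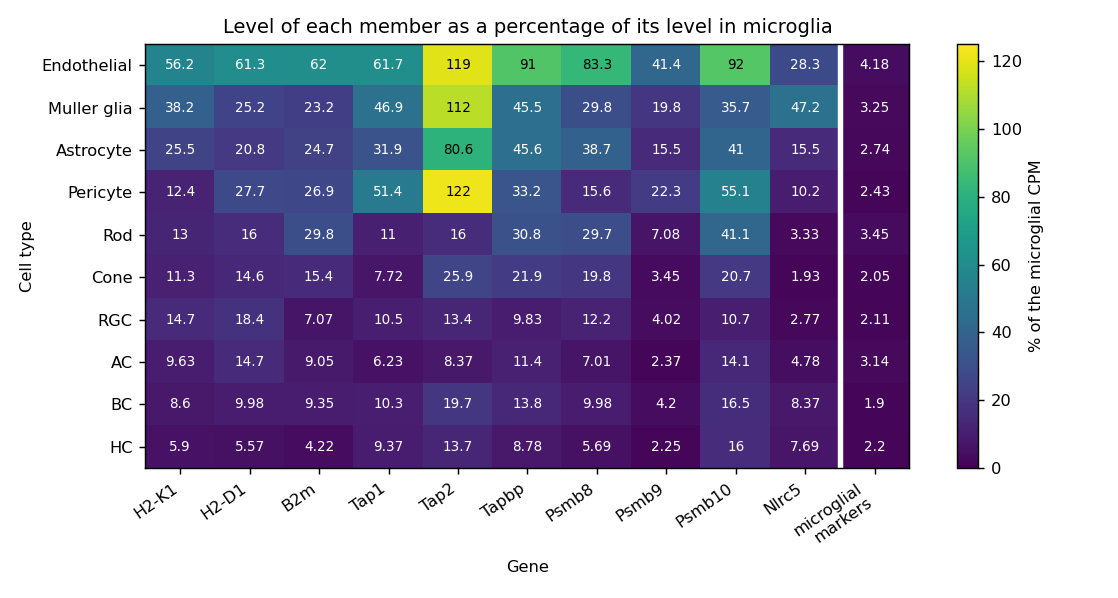
Level of each gene in each cell type as a percentage of the same gene's level in microglia (colour and printed value, UMIs pooled over 6 libraries), with the 11 microglial markers in the last column as a measure of free RNA. Tap2 exceeds 100 in endothelial nuclei, pericytes and Muller glia, Nlrc5 falls from 47.2 in Muller glia to 1.93 in cones, and rods stand out for B2m, Tapbp, Psmb8 and Psmb10.

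At equal depth, most microglia and a minority of neurons held a transcript of the set. With every nucleus thinned to 1000 UMIs, 86.0% of 1397 microglia had at least 1 UMI of the 10 genes (95% exact binomial interval 84.0 to 87.7, covering counting error only), against 72.0% of endothelial nuclei and 52.9% of Muller glia. The share was 30.9% of 10518 rods, 26.4% of cones, 23.1% of RGC, 20.3% of AC, 19.2% of BC and 14.6% of HC. H2-K1 alone was found in 53.0% of microglia and 26.1% of Muller glia, and Nlrc5 in 18.2% and 9.01%. Rods under 1000 UMIs (3799 nuclei) were left out, so the rod share describes the deeper rods. The unthinned shares were 97.2% in microglia, 91.4% in Muller glia and 39.0% in rods. They came from unequal depths (median 2086, 4373 and 1250 UMIs) and are not compared between types.

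Among 18764 other genes with at least 100 UMIs, the patterns over the 11 cell types most like the mean of the set were those of Cdk2, a cell cycle kinase (Pearson r = 0.985), Ctsh, a lysosomal cathepsin (0.979), Casp8, a death receptor caspase (0.979), Icam1, an adhesion molecule for leukocytes (0.978), and Sat1, an enzyme of polyamine breakdown (0.977). The correlation of each member with that mean, of which it is a part, ran from 0.778 for Tap2 to 0.961 for Tap1. These are descriptions over 11 points that share libraries and depth.

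IL-27 against saline gave no call for any of the 10 genes in any cell type. Of 110 combinations of gene and cell type, 78 in 10 cell types passed the filter on low counts (none in pericytes), 66 of them with a higher and 12 with a lower mean in the IL-27 treated group. In the quasi-likelihood test of edgeR, adjusted by Benjamini-Hochberg over all genes tested in a cell type, 0 of the 78 were called and 4 had an unadjusted p under 0.05. DESeq2 also called 0, with 5 unadjusted p-values under 0.05. The 4 in edgeR were 2 in BC, 1 in HC and 1 in Muller glia. The HC gene, Nlrc5, passed the filter through the IL-27 treated libraries alone. Among all genes, edgeR gave an unadjusted p under 0.05 to 243 higher and 236 lower of 14826 in BC. These were 216 and 154 of 7653 in HC, and 563 and 702 of 13962 in Muller glia. The share of all genes called was as low: 0.00753% in rods, 0% in cones, 0.00674% in BC, 0.006% in AC, 0% in HC, 0% in RGC, 0.0286% in Muller glia, 0% in microglia, 0.0287% in astrocytes and 0% in endothelial nuclei.

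In Muller glia, the radial glia that span the retina, the IL-27 mean was the higher for 10 of 10 genes, with a median log2FC of 0.21 against 0.00 over all genes tested. Tap1 had the largest difference, at 37.6, 31.4 and 28.2 CPM in saline replicates 1, 2 and 6 and 27.8, 56.3 and 59.2 CPM in IL-27 replicates 4, 5 and 10. IL-27 replicates 5 and 10 lay above all saline libraries and replicate 4 below them, so the groups overlapped, with a log2FC of 0.57 ± 0.24 (SE, unadjusted p = 0.0424, edgeR adjusted p = 0.517). Nlrc5 was at 104, 87.0 and 68.5 CPM in saline and 73.3, 142 and 131 CPM in IL-27 treated libraries, with replicates 5 and 10 above all saline libraries and replicate 4 inside their range (log2FC 0.44 ± 0.23, edgeR adjusted p = 0.644).

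Among the heavy and light chains in Muller glia, H2-K1 stood at 349, 274 and 320.5 CPM in saline and 236, 447 and 301 CPM in IL-27 treated libraries, a log2FC of 0.08 ± 0.21 (edgeR adjusted p = 0.955). H2-D1 (0.20 ± 0.20) and B2m (0.21 ± 0.22) had differences no larger than their standard errors. IL-27 replicate 5 was the highest and IL-27 replicate 4 the lowest library for all 3 chains. The sum of the 10 genes was 879, 732 and 738 CPM in saline and 606, 1139 and 943 CPM in IL-27 treated libraries, so the treated group spanned the whole control range. Tapbp (0.40 ± 0.24), Tap2 (0.21 ± 0.17), Psmb10 (0.27 ± 0.21), Psmb9 (0.18 ± 0.26) and Psmb8 (0.05 ± 0.29) completed the set.

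Without IL-27 replicate 5 the Muller median fell to 0.07, with 5 of 10 genes higher and 5 lower. Without IL-27 replicate 4 the median was 0.43, with 10 of 10 higher. Over the 4 libraries with Y-linked counts it was 0.16, with 6 of 10 genes higher and 4 lower. A Muller subcluster with 587 summed nuclei was held mostly by saline libraries, with 202, 202 and 87 nuclei in replicates 1, 2 and 6. IL-27 replicates 4, 5 and 10 held 11, 4 and 81, so replicate 10 kept it. It had the lowest level of the set (485 CPM against 728 to 2426 CPM in the other 6 subclusters), and without its nuclei the median was 0.16. The main cluster whose leading genes include its Frmpd4, Mecom and Fbln1 had 7 Muller markers up. Its Muller marker score was only 0.32, against 0.90 in the largest Muller cluster.

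Microglia, with the highest levels, showed little difference between the groups, with 7 of 10 genes higher and 3 lower in the IL-27 mean and a median log2FC of 0.05 against 0.00 for all genes. H2-K1 stood at 939, 687 and 688 CPM in saline and 613, 1097 and 824 CPM in IL-27 treated libraries, which overlapped (log2FC 0.13 ± 0.20, edgeR adjusted p = 0.9995). H2-D1 had the lower IL-27 mean, with 635, 440.0 and 449.8 CPM in saline and 373, 572 and 504 CPM in IL-27 treated libraries. Saline replicate 1 was the highest of the 6 and IL-27 replicate 4 the lowest. The microglial median was -0.15 without IL-27 replicate 5, -0.06 without saline replicate 6, -0.02 without IL-27 replicate 10, -0.18 over the 4 libraries with Y-linked counts, 0.14 when saline replicate 1 was left out and 0.24 when IL-27 replicate 4 was.

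In 2 microglial genes the groups did not overlap. Tap1 was 75.7, 84.5 and 64.9 CPM in saline and 95.5, 91.1 and 85.0 CPM in IL-27 treated libraries, all 3 of them above the controls, with a log2FC of 0.27 ± 0.21 (edgeR adjusted p = 0.9995). Psmb10 was 37.8, 36.9 and 36.1 CPM in saline and 26.5, 28.8 and 34.0 CPM in IL-27 treated libraries, all below (log2FC -0.34 ± 0.29, edgeR adjusted p = 0.9995). Each rested on few molecules, with 275 Tap1 and 107 Psmb10 UMIs over the 6 libraries. The groups failed to overlap in 7.87% of the 6088 microglial genes with at least 10 UMIs in every library, so 2 of 10 is not set apart from that background.

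T cells carry class I RNA, and their markers varied within the microglial clusters. Nuclei with at least 2 UMIs of T, NK or B cell markers numbered 29, 2 and 4 in saline replicates 1, 2 and 6 and 3, 34 and 6 in IL-27 replicates 4, 5 and 10. The 6 T cell markers summed to 6.50 to 186 CPM in saline and 24.7 to 104 CPM in IL-27 treated libraries, with none of them at 0. The libraries with most such nuclei, saline replicate 1 and IL-27 replicate 5, were also those with most microglial H2-K1. They also had most H2-K1 in rods (146 and 179 CPM), cones (133 and 144), BC (91.4 and 110) and AC (100 and 114). Whether the lymphocyte-marker nuclei had a part in the microglial H2-K1 level of a library was not tested. Without the lymphocyte-marker nuclei the microglial median was 0.05, as with them.

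**Figure D3:**
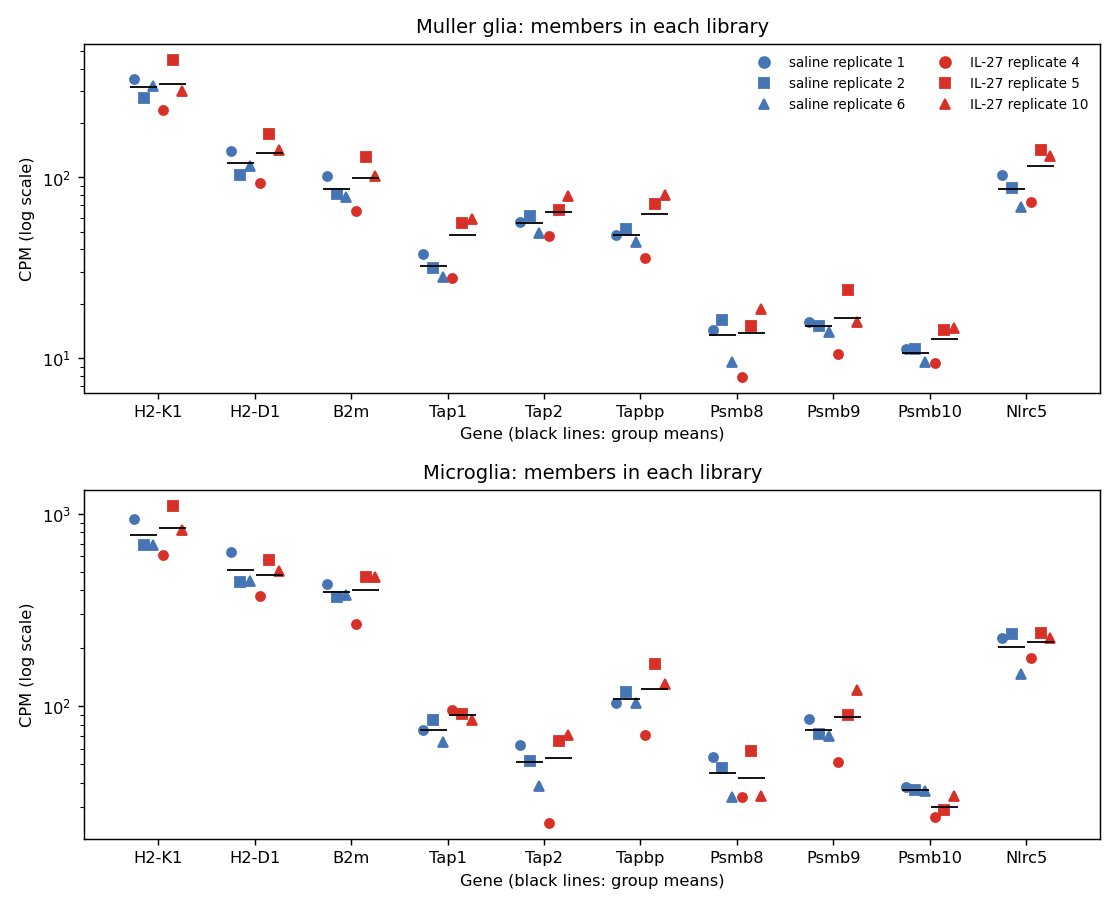
Level (CPM, log axis) of each gene in each library in Muller glia (top) and microglia (bottom), blue for saline and red for IL-27, with black lines at the group means. In Muller glia IL-27 replicates 5 and 10 lie above and replicate 4 at or below the saline libraries for Tap1 (56.3, 59.2 and 27.8 CPM), and in microglia only Tap1 and Psmb10 have groups that do not overlap.

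Endothelial nuclei were few (26 to 49 a library), and 4 of the 10 genes passed the filter there. H2-D1 was 301, 267 and 187 CPM in saline and 298, 337 and 481 CPM in IL-27 treated libraries (log2FC 0.58 ± 0.30, edgeR adjusted p = 0.996). B2m was 0.47 ± 0.33 and Tapbp 0.45 ± 0.40 higher on the log2 scale, neither called, while H2-K1 was at -0.09 ± 0.30. The groups overlapped for each of these, and the median log2FC was 0.46 against 0.01 for all genes. Astrocytes, with 3 genes tested, had a median of -0.14, which was 0.20 without IL-27 replicate 4, -0.42 without IL-27 replicate 5 and 0.013 to 0.032 without each of the other 4 libraries in turn, and their H2-D1 log2FC was -0.52 ± 0.33 (edgeR adjusted p = 0.976).

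Among neurons, BC had the largest median (0.39, 10 of 10 genes with a higher IL-27 mean, 0.00 over all genes). It was 0.14 without IL-27 replicate 10, 0.19 without IL-27 replicate 5 (7 of 10 genes), 0.20 without saline replicate 6 and 0.61 when IL-27 replicate 4 was left out. BC Tap1 was 8.23, 6.37 and 4.62 CPM in saline and 5.22, 12.95 and 14.99 CPM in IL-27 treated libraries (log2FC 0.81 ± 0.32, unadjusted p = 0.0260, edgeR adjusted p = 0.9997). BC Tapbp was 15.2, 14.6 and 10.9 CPM in saline and 12.6, 24.6 and 21.3 CPM in IL-27 treated libraries (0.56 ± 0.21, unadjusted p = 0.0235, edgeR adjusted p = 0.9997). In both genes IL-27 replicate 4 lay inside the saline range and the other IL-27 treated libraries above it. With no filter on low counts, edgeR called BC Nlrc5 (log2FC 0.72, adjusted p = 0.00112) and BC Tap1 (0.81, adjusted p = 0.0302), where 0.223% of all genes were called. BC Nlrc5 was 14.6, 18.8 and 8.03 CPM in saline and 7.997, 28.4 and 30.1 CPM in IL-27 treated libraries. The groups overlapped, with IL-27 replicate 4 the lowest library. With the filter, BC Nlrc5 was not called (log2FC 0.72 ± 0.38, unadjusted p = 0.0821, edgeR adjusted p = 0.9997).

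Medians in the other neurons were 0.25 in rods (10 of 10 genes with a higher IL-27 mean), 0.29 in HC (5 of 5), 0.17 in AC (7 of 10), 0.08 in RGC (8 of 10) and 0.07 in cones (5 of 6). These moved with single libraries. Leaving out IL-27 replicate 5 turned the RGC median to -0.10 and that of cones to -0.11, and leaving out saline replicate 6 turned RGC to -0.024, while leaving out IL-27 replicate 4 raised all 5 medians (0.34 to 0.62). Rod medians ran from 0.083 to 0.44 and AC medians from 0.065 to 0.45 with a library left out, and the HC median was 0.017 (3 of 6 genes) with doublets kept. HC Nlrc5 had the smallest p of the 78 tests. It was 6.73, 11.8 and 8.63 CPM in saline and 15.5, 25.2 and 38.1 CPM in IL-27 treated libraries, from 7, 8 and 6 and from 17, 23 and 20 UMIs. The groups did not overlap, with a log2FC of 1.46 ± 0.40 (unadjusted p = 0.00146, edgeR adjusted p = 0.415). This gene entered the HC test only because the IL-27 treated libraries exceeded the limit of the low-count filter, the single such case among the 78, so a difference was built into its entry.

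The same libraries stood at the ends of the range in most cell types. Of 66 combinations of gene and cell type with at least 10 UMIs in every library, IL-27 replicate 5 was the highest library in 33 and IL-27 replicate 10 in 27, while IL-27 replicate 4 was the lowest in 48 and saline replicate 6 in 14. The groups overlapped in 64 of the 66, and across all genes 9.28% of such combinations did not overlap. The 66 combinations share libraries and, within a type, nuclei, and are not independent.

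Interferon-stimulated genes had the same libraries as the members at both ends of their range in Muller glia, rods and BC. As the mean log2 deviation of each gene from its own mean over the 6 libraries, the members in Muller glia stood at 0.05, -0.08 and -0.26 in saline replicates 1, 2 and 6 and at -0.46, 0.43 and 0.33 in IL-27 replicates 4, 5 and 10. The 44 measured genes of an interferon list that holds no member stood at 0.09, 0.10, -0.72, -0.47, 0.41 and 0.60 in the same order. In both measures IL-27 replicates 5 and 10 were the highest and IL-27 replicate 4 and saline replicate 6 the lowest. The same 4 libraries took those places for the members in rods, BC, AC, RGC, microglia and endothelial nuclei. For the interferon list they did so in rods, cones and BC. In AC and RGC saline replicate 1 stood above IL-27 replicate 5 for that list (0.39 against 0.29 and 0.19 against 0.14). In microglia the interferon list ran differently, at 0.16, 0.35 and -0.42 in saline and -0.19, -0.07 and 0.17 in IL-27 treated libraries, with the members at 0.16, 0.02, -0.20, -0.42, 0.27 and 0.17. Whether the interferon state of a library had a part in its class I level was not tested across libraries.

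**Figure D4:**
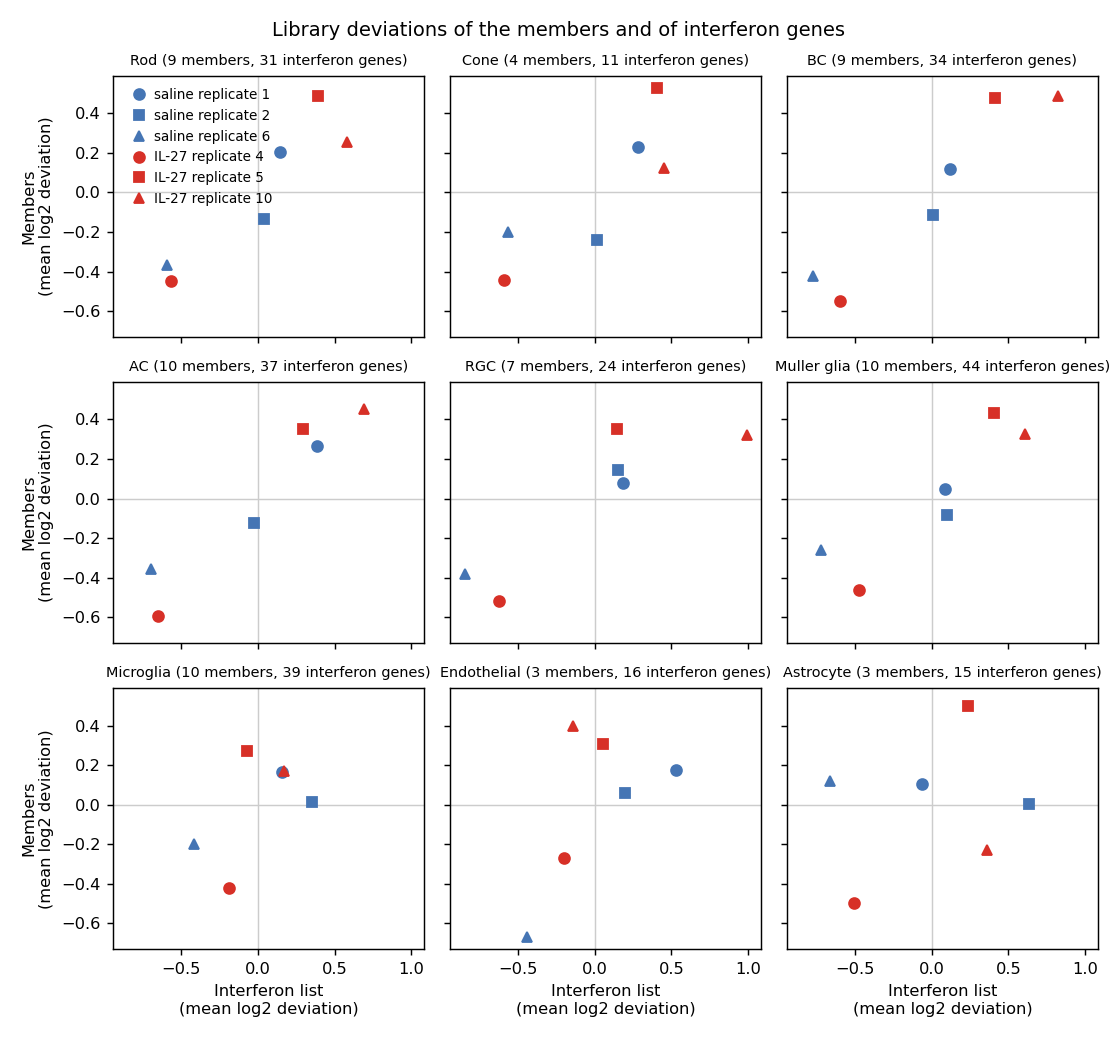
Mean log2 deviation of the members (vertical) against that of the interferon list (horizontal) from their means over 6 libraries, 1 panel per cell type, blue for saline and red for IL-27. In Muller glia IL-27 replicate 5 (0.41, 0.43) and replicate 10 (0.60, 0.33) sit at the upper right, while IL-27 replicate 4 (-0.47, -0.46) and saline replicate 6 (-0.72, -0.26) sit at the lower left.

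Within libraries, Muller nuclei with interferon transcripts held more class I presentation RNA in sum, though not of every member. Nuclei thinned to 1000 UMIs were split into those with at least 2 UMIs of the interferon list (3881 nuclei) and those with none (459 nuclei). The sum of the 10 genes averaged 922 CPM in the first and 667 CPM in the second, a log2 difference of 0.50 ± 0.32 (SD over 6 libraries) that was positive in 6 of 6 libraries. Of the 7 members with at least 100 UMIs, 4 were higher in every library, against 1.81% of the 7362 genes of that abundance. These were Nlrc5 (log2 difference 1.61 ± 1.12), Tap1 (1.46 ± 1.24), Tap2 (0.95 ± 0.59) and H2-D1 (0.39 ± 0.18), each with p = 0.0313 by exact permutation (as small as 6 libraries allow) and 0.495 after adjustment over all 7362 genes.

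H2-K1 was higher in 4 of 6 libraries (0.27 ± 0.40) and Tapbp in 4 of 6 (0.42 ± 1.26), while B2m was at -0.04 ± 0.35 with 2 of 6 libraries higher. In the nuclei without interferon transcripts Tap1 had no UMI in 3 libraries, Nlrc5 in 1 (IL-27 replicate 10) and Tapbp in 1 (IL-27 replicate 4), so their differences depend on the prior count of 0.5. Sorted into 5 classes chosen after the values were seen, Muller nuclei with 0, 1 to 2, 3 to 5, 6 to 10 and 11 or more interferon UMIs had 667, 706, 770.5, 1045 and 1607 CPM of the set. The last class, with 31 to 116 nuclei a library, lay above every other class in each library.

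In microglia the same split gave 2541 CPM in 1279 nuclei with interferon UMIs and 1966 CPM in 44 nuclei without, a log2 difference of 0.30 ± 0.40 with 5 of 6 libraries higher. The nuclei without interferon UMIs numbered 3 to 13 a library, which limits this comparison. It was higher in 4 of 6 libraries with all retained nuclei, in 3 of 6 under 1% mitochondrial counts and in 6 of 6 with doublets kept. None of the 7 microglial members with at least 100 UMIs was higher in every library, where 2.17% of 3367 genes were, and H2-K1 was higher in 5 of 6 (0.51 ± 0.57, exact permutation p = 0.0625). Over the 5 classes the sum went from 1966 to 2965 CPM.

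**Figure D5:**
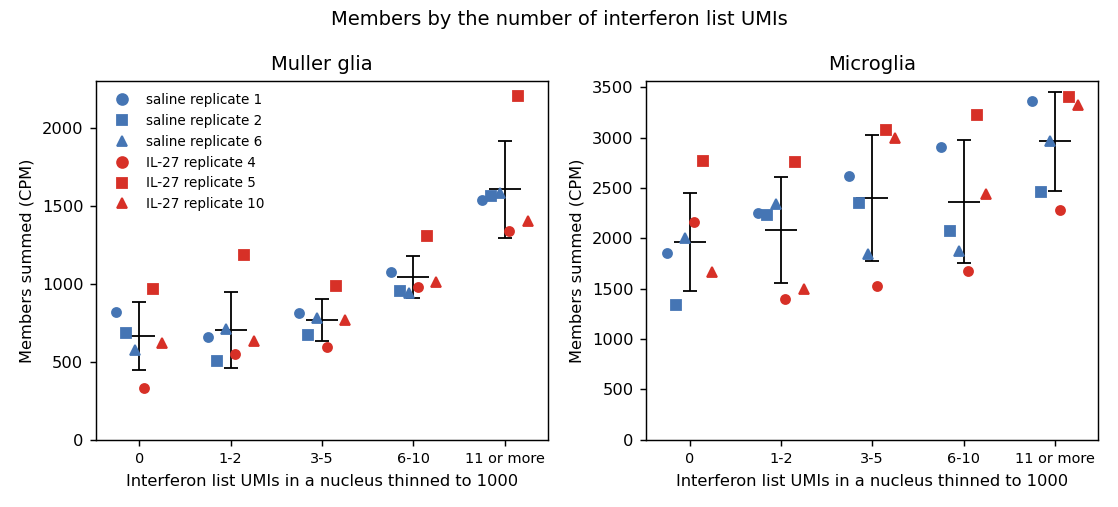
Summed level of the 10 genes (CPM, vertical axis from 0) in Muller glia (left) and microglia (right) by the number of interferon list UMIs in a nucleus thinned to 1000 UMIs, 1 point per library with the mean and SD in black. Muller means go from 667 CPM with no interferon UMI to 1607 CPM with 11 or more, and both saline (blue) and IL-27 (red) libraries show it.

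A Muller subcluster of 135 nuclei whose leading genes include the interferon-induced Cxcl10, Ifi204 and Gbp4 was found in both groups, and its members summed to 2426 CPM, near the microglial mean of 2320.3 CPM, with Nlrc5 at 561 CPM against 101 CPM in all Muller glia. This is a description of a cluster, with no test.

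The rest of the pathway gave 0 calls in Muller glia and microglia as well. Of 10 other class I heavy chains tested in Muller glia, 8 had a higher IL-27 mean (median log2FC 0.30), among them the nonclassical H2-T24 (0.61 ± 0.27) and H2-T23 (0.71 ± 0.33), while in microglia 3 of 7 did (median -0.06). Of the other proteasome subunits 5 of 18 were higher and 13 lower in Muller glia (median -0.05), with the constitutive catalytic subunit Psmb5, which the immunoproteasome replaces by Psmb8, at -0.48 ± 0.19 (edgeR adjusted p = 0.476). Loading and trimming factors were higher for 7 of 9 in Muller glia, the most marked p being that of Sec61b, a subunit of the translocation channel, at -0.47 ± 0.19.

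All 5 tested MHC class II genes had a higher IL-27 mean in Muller glia, with the invariant chain Cd74 at 0.87 ± 0.36 (edgeR adjusted p = 0.505), and 7 of 7 did in microglia (median 0.12). Promoter and signal regulators were higher for 18 of 26 in Muller glia (median 0.09), and the interferon regulatory factor Irf8 stood at 0.91 ± 0.39. The interferon list had a higher IL-27 mean for 44 of 47 genes in Muller glia (median 0.38) and for 17 of 46 in microglia (median -0.07). Among neurons it was 20 of 20 in HC (median 0.71), 40 of 40 in BC (0.49), 36 of 40 in rods (0.33), 34 of 42 in AC (0.31), 32 of 33 in RGC (0.29) and 18 of 23 in cones (0.19), against 8 of 26 in endothelial nuclei (median -0.16) and 12 of 26 in astrocytes (-0.025). None of these genes passed the edgeR adjustment. The genes of a list share libraries and are not independent. As the mean log2 deviation of the interferon list, IL-27 replicate 4 stood at -0.56 in rods, -0.59 in BC, -0.65 in AC and -0.62 in RGC. That was below saline replicates 1 and 2 and above saline replicate 6 in each, so the higher IL-27 means rested on IL-27 replicates 5 and 10.

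The response of Muller glia was compared with that of microglia from the same libraries through the cell type by treatment term, with library as a block. The log2FC was larger in Muller glia by a median of 0.20 over the 10 genes, from -0.05 ± 0.17 for H2-K1 to 0.60 ± 0.38 for Psmb10. None of the 10 was called, the smallest edgeR adjusted p being 0.920 (0 unadjusted p-values under 0.05), while 0.256% of all genes were called.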

How the data were processed

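Single-nucleus 3′ RNA libraries of flash frozen retinas were made from isolated nuclei with a 10x Chromium kit. The authors deposited whole UMI counts per gene and called barcode, unnormalized, with 32285 genes. The submitters' processing notes name Cell Ranger 9.0.1 and Seurat 5.2.1, whereas the matrix headers name cellranger 8.0.1. The genome build is not given in the sources used here.

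Barcodes with at least 500 UMIs, 200 genes and under 5% mitochondrial counts were kept (56205 of 56634). A simulated-doublet score removed the highest scoring nuclei at a rate of 8% scaled for homotypic pairs, which left 52001. Variable genes (2000) were picked with scanpy 1.11.5. Nuclei were clustered on a shared-neighbour graph by the Louvain method of igraph 0.11.9 (25 components, 20 neighbours, resolution 0.5, seed 20). The 49 clusters were then compared with marker lists. A name needed 3 markers in at least 10% of nuclei and a score 1.5 times the next, limits set after the clusters were seen. No cluster met the RPE list, and 4 clusters (1846 nuclei) stayed unnamed and unused. Nuclei whose log2 depth lay beyond 2 median absolute deviations, the limit of the study, applied here within each type, were left out. Counts were then summed per library and type (at least 10 nuclei in each library).

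Sums were tested with edgeR 4.0.16 (filterByExpr with 10 counts, TMM, quasi-likelihood, Benjamini-Hochberg over all genes of a type, threshold 0.05) in R 4.3.3, after a check on simulated counts. DESeq2 1.42.0 was an alternative. Within-library comparisons used log2 CPM with a prior count of 0.5 and exact sign flips. No p-value was computed for the summed members or adjusted over the members alone. Fold changes are IL-27 against saline. The text names every member, at most 2 genes per pathway list and cell type by smallest p, and the 5 most similar genes by correlation. The members and lists were chosen with earlier results of these data known. Alternatives covered the test, scaling, filter, nuclei, doublets, mitochondrial limit, resolution, thinning depth and each library left out. The 4 libraries with Y-linked counts, microglia without lymphocyte-marker nuclei, the classes of interferon UMIs and the all-gene background of the interferon split were added after seeing the data. Precision is limited by 3 libraries a group, and binomial intervals cover counting error only.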

Additional observations from a re-analysis of the deposited data

How the results depend on the processing

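No paired analysis was possible because the saline (1, 2, 6) and IL-27 (4, 5, 10) replicate numbers are not shared. The count of members called moved from 0 to 2 with no filter on low counts and stayed 0 under every other alternative, each library left out included. DESeq2 called 100 of 13962 Muller genes where edgeR called 4, none of them a member. Medians over the members kept their sign in Muller glia (0.07 to 0.43) and endothelial nuclei (0.19 to 0.58), and in microglia ran from -0.18 to 0.24. Single-member pairs of cell types past the threshold went from 7 to 0 with all retained nuclei, 0 with doublets kept, 0 under 1% mitochondrial counts and 0 to 0 with a library left out, where 5 libraries allow no p below 0.0625. The summed differences between the leading cell types stayed within 1 SD. The interferon split in microglia was 0.92 with doublets kept, and at full depth gave no usable value, since 14 Muller and 5 microglial nuclei had no interferon UMI and some libraries had no such nucleus. With 2000 UMIs and with no thinning, the shares of nuclei with a member UMI were 95.3% and 97.2% in microglia, 89.8% and 91.4% in endothelial nuclei, 75.2% and 91.4% in Muller glia, and 40.3% and 39.0% in rods, of which 1212 nuclei reached 2000 UMIs. Of 465 alternatives for 28 single-gene results, 421 kept direction and call and 42 turned. Over the 4 libraries with Y-linked counts the log2FC turned in Muller glia for H2-K1 (-0.32), H2-D1 (-0.12), B2m (-0.11) and Psmb9 (-0.18), and in microglia for H2-K1 (-0.19), B2m (-0.17), Tap2 (-0.22) and Tapbp (-0.10). Other turns were Muller H2-K1 without the saline-enriched cluster (-0.027), microglial Tap2 without lymphocyte-marker nuclei (-0.018), microglial Psmb8 with all retained nuclei (0.012), microglial Nlrc5 under 1% mitochondrial counts (-0.015), and endothelial H2-K1 with all retained nuclei (0.015) and with doublets kept (0.060). With each library left out in turn, Muller values ran from -0.22 to 0.27 for H2-K1, -0.023 to 0.41 for H2-D1, -0.057 to 0.43 for B2m, -0.18 to 0.32 for Psmb8 and -0.19 to 0.42 for Psmb9. Microglial values ran from -0.12 to 0.31 for H2-K1, -0.24 to 0.11 for H2-D1, -0.13 to 0.25 for B2m, -0.23 to 0.37 for Tap2, -0.17 to 0.46 for Tapbp, -0.45 to 0.094 for Psmb8, -0.073 to 0.42 for Psmb9 and -0.12 to 0.19 for Nlrc5, and endothelial H2-K1 from -0.29 to 0.12. The cause of these turns was not tested.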
